A study of Mus musculus with 8 samples.

Results

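The RNAs of 9 genes that encode nuclear RNA decay adaptors and their partners were described in mouse embryonic stem cells: Zcchc8, Rbm7, Skiv2l2 (now named Mtrex), Zfc3h1, Pabpn1, Zc3h3, Zc3h18, Srrt and Zc3h4. They were chosen by name, as the subunits of the nuclear exosome targeting (NEXT) and poly(A) tail exosome targeting (PAXT) complexes and the proteins that connect these to capped RNA or act beside them. All 9 had a row in the table, out of 17597 genes and 18694 features. The series holds 8 total RNA libraries from Cast x 129S hybrid cells in which METTL3, the catalytic subunit of the N6-methyladenosine (m6A) writer, carries the FKBP12 F36V degron tag. One group of 4 libraries received dTAG-13, a molecule that sends the tagged protein for degradation, for 26 h, and the other 4 received none. Both groups were made up of 2 replicates of clone C3 and 2 of clone H5. In every library the promoter of 1 Xist allele had been replaced by a TetOn promoter, no doxycycline was given, and the cells had been grown on inactivated fibroblast feeders.

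The nuclear exosome is a multisubunit ribonuclease that needs adaptors to find its RNA. NEXT mainly brings it short transcripts without a poly(A) tail, such as those made upstream of promoters and from enhancers. PAXT mainly brings it polyadenylated RNA that stays in the nucleus. The division is not strict, as the paper reports that NEXT, and not PAXT, regulates turnover of the polyadenylated Xist RNA. Both adaptors use the same RNA helicase, and both are connected to the cap-binding complex on the 5′ end of the RNA. The series asks which transcripts change when METTL3 is removed for about a day.

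The value available for each gene was a single mean over all libraries, treated and untreated together, of read counts divided by size factors, named the authors' mean count here. A pooled mean has no spread, so neither a difference between treated and untreated cells nor an error could be given, and no pair of levels below was tested against replicate error. The fold changes and p-values of the authors' own comparison were not used. The mean counts added up to 16292717, of which the 9 genes held 0.119%. Mettl3 itself had an authors' mean count of 684 (338 per kb of transcript), a level that does not bear on the removal of its protein. All 10 embryonic stem cell markers lay above the gene median per kb, from 467 for Klf4 to 16142 for Dppa5a. Of 12 fibroblast feeder markers 6 did, from Postn at 0.241 to S100a6 at 1725 per kb. The collagen genes Col1a1, Col1a2 and Col3a1 had authors' mean counts of 19.8, 13.8 and 8.38, while Fn1, Sparc, Vim, S100a6 and Lgals1 had authors' mean counts of 4941, 3052, 2073, 1261 and 972. The share of feeder RNA in the members' values was not tested.

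The 9 genes were well detected, and their levels differed widely. Their authors' mean counts ran from 161 for Zc3h3 to 4395 for Srrt, with a median of 1683, against a median of 170 over all 17597 genes. Of the 9, 8 lay above that median and 4 lay above the 90th percentile, namely Srrt, Zc3h18, Skiv2l2 and Pabpn1. Long transcripts give more reads, so levels were compared between genes per kb of one annotated transcript. On that scale the highest member, Pabpn1, stood 56.4-fold above the lowest, Zc3h3.

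**Figure D1:**
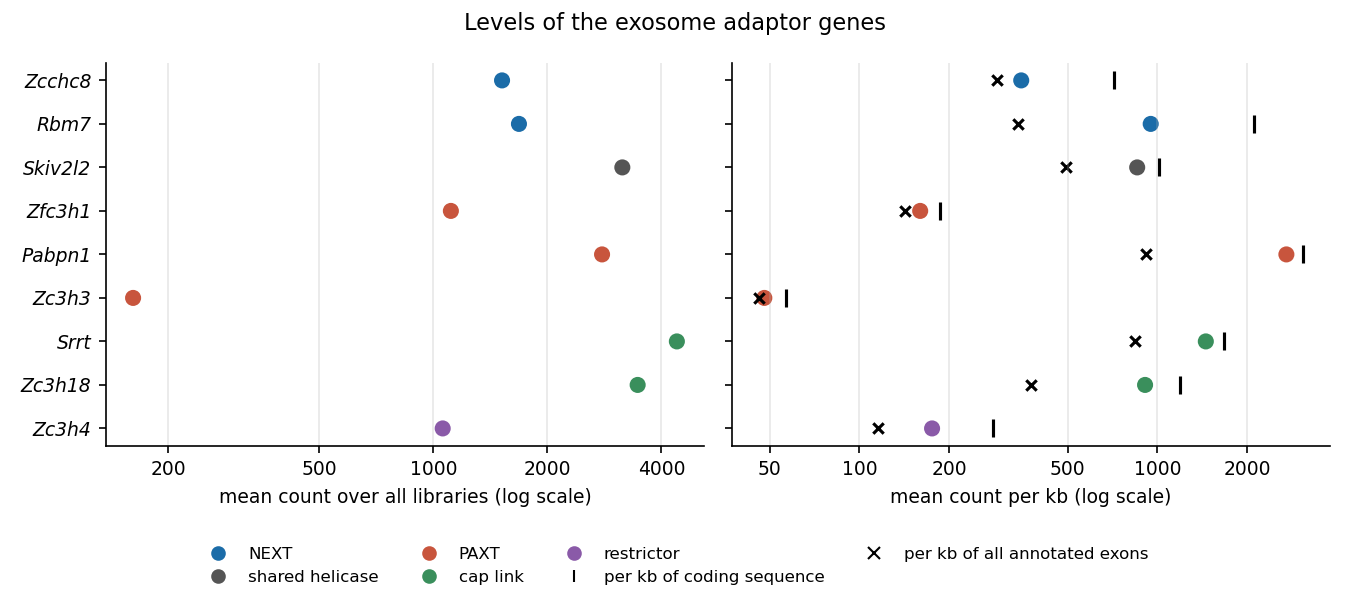
Authors' mean count over all libraries (left) and mean count per kb (right) of the 9 genes, on log axes. Circles on the right divide by the length of the chosen transcript, bars by its coding sequence and crosses by all annotated exons of the gene. No error is drawn because each value is one pooled mean. Zc3h3 is lowest on every scale, and Pabpn1 is highest per kb under all 3 lengths.

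NEXT consists of the scaffold ZCCHC8, the RNA-binding protein RBM7 and the helicase MTR4, the product of Skiv2l2. Zcchc8 (chromosome 5, 123698294 to 123721100, GRCm38, minus strand) had an authors' mean count of 1519, or 349 per kb of its 4350-base transcript. Rbm7 (chromosome 9, 48488701 to 48495299, minus strand) had a similar mean count of 1683 on a transcript of 1773 bases, which gave 949 per kb. Skiv2l2 (chromosome 13, 112867418 to 112927398, minus strand), with 27 exons, had a mean count of 3155 and 855 per kb. Per kb, the scaffold was thus the lowest of the 3, with Rbm7 at 2.72 times and Skiv2l2 at 2.45 times its level. The gap between Zcchc8 and Rbm7 depends on the length used. Their mean counts before division were close, per kb of coding sequence they stood at 713 and 2110, and per kb of all annotated exons at 289 and 341. Exons of Skiv2l2 overlap those of Plpp1 on the opposite strand, listed as Ppap2a with a mean count of 408, over 452 bases or 12.3% of its transcript. Whether the counting used strand is uncertain, so reads of that stretch may belong to either gene.

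PAXT joins the same helicase to ZFC3H1, a large zinc finger protein, and works with PABPN1, which coats poly(A) tails in the nucleus, and with ZC3H3. Its genes were far more unequal than those of NEXT. Zfc3h1 (chromosome 10, 115384959 to 115432772, plus strand) had an authors' mean count of 1113, and 160 per kb of a transcript of 6957 bases in 35 exons. Pabpn1 (chromosome 14, 54892500 to 54898169, plus strand) had a mean count of 2790 and 2708 per kb. Zc3h3 (chromosome 15, 75754430 to 75841915, minus strand) had a mean count of 161 and 48.0 per kb. It was the one member below the gene median of 58.7 per kb. The helicase stood 5.35-fold above Zfc3h1 per kb.

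The level of Pabpn1 per kb depends on its annotation. The chosen transcript has 1030 bases, while the 6 coding transcripts of the basic set run from 700 to 1775 bases, which would give 3985 to 1572 per kb. Dividing by all 3035 annotated exon bases gave 919. Of the chosen transcript, 63.2% of the bases are also exon bases of Gm20521, a protein-coding record on the same strand that has no row in the table. Reads that fit both records cannot be told apart in this value.

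The scaffolds of both complexes could be set side by side. Zcchc8 stood at 2.18 times the level of Zfc3h1 per kb of transcript, at 2.04 times per kb of all annotated exons and at 3.83 times per kb of coding sequence. The mean counts themselves differed by a factor of 1.36. Zfc3h1 encodes 1992 amino acids and Zcchc8 encodes 709, so the factor depends on the length used while its direction did not.

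SRRT (also known as ARS2) binds the cap-binding complex, and ZC3H18 bridges that complex to NEXT and PAXT. Both genes were among the most abundant members. Srrt (chromosome 5, 137295704 to 137307674, minus strand) had an authors' mean count of 4395 and 1453 per kb, and 95.0% of genes with an annotated transcript lay below it. Zc3h18 (chromosome 8, 122376609 to 122417360, plus strand) had a mean count of 3463 and 909 per kb. Zc3h18, Rbm7 and Skiv2l2 lay within a narrow band from 855 to 949 per kb, and their order changed with the length that was used. ZC3H4 acts beside these adaptors. With WDR82 it forms the restrictor, which stops transcription of noncoding RNA early. Zc3h4 (chromosome 7, 16400910 to 16437696, plus strand) had a mean count of 1059 and 175 per kb, close to the 160 per kb of Zfc3h1, and these neighbours traded places when all annotated exons were used. Its partner Wdr82 stood 5.83-fold higher at 1023 per kb.

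**Figure D2:**
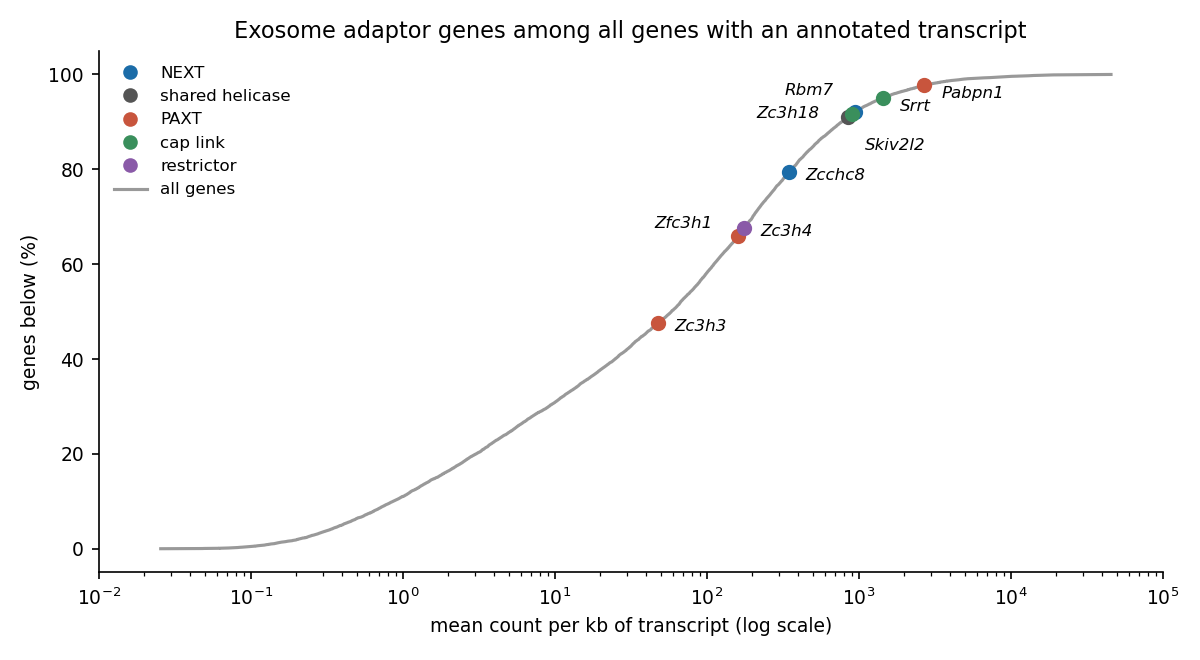
Percentage of genes with a lower mean count per kb (vertical axis) against mean count per kb of transcript (log axis), for 17382 genes with an annotated transcript (line) and the 9 members (circles, coloured by complex). Pabpn1 and Srrt lie above 95.0% of genes, Zcchc8 lies above 79.4%, and Zc3h3 lies above 47.6%.

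Per kb of transcript, the core genes of the exosome were more even than the 9 members, which spanned 56.4-fold. The 3 NEXT genes alone spanned 2.72-fold, near the range of the core. The core range was not computed under the other lengths. All 9 core subunit genes lay between 495 per kb (Exosc4) and 1121 per kb (Exosc2), a 2.26-fold range with a median of 788. Rbm7, Skiv2l2 and Zc3h18 fell within this range. Srrt and Pabpn1 stood above all 9 core genes, while Zcchc8, Zc3h4, Zfc3h1 and Zc3h3 stood below all 9. Relative to the core median, Zcchc8 stood at 0.443, Zfc3h1 at 0.203 and Zc3h3 at 0.0609. The places against single core genes are per kb of transcript only. Per kb of coding sequence the core median was 1213. Skiv2l2 at 1010 and Zc3h18 at 1186 then lay below it, while per kb of transcript they lay above it. The other members kept their side of the core median. The nucleases and cofactors of the nuclear exosome had a median of 676 per kb, from C1d at 263 to Mphosph6 at 1693.

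Other lists of the pathway were described in the same way, by their range per kb. The 6 genes of the cap-binding complex and its adaptors had a median of 830, from 107 for Ncbp3, listed under its older name 1200014J11Rik, to 1453 for Srrt. Rbm26 and Rbm27, whose products associate with PAXT, stood at 513 and 381. In TRAMP, an adaptor that also uses the helicase and adds short tails to nuclear RNA, the lowest gene was Papd7 at 130 and the highest was Skiv2l2 itself, with a median of 313. The Ski complex is the adaptor of the cytoplasmic exosome, and it ran from 130 for its helicase Skiv2l to 1427 for Wdr61. The nuclear helicase gene therefore stood above its cytoplasmic relative. Among 5 paralogs of the members, Pabpn1l had no row, Rbm11 stood at 2.74 per kb with a mean count of 7.40, and Zc3h8 was highest at 245. The m6A writer genes had a median of 332, from 80.9 for Cbll1, the lowest, to 2342 for Wtap. Ythdc1, the nuclear m6A reader, stood at 1197 per kb.

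**Figure D3:**
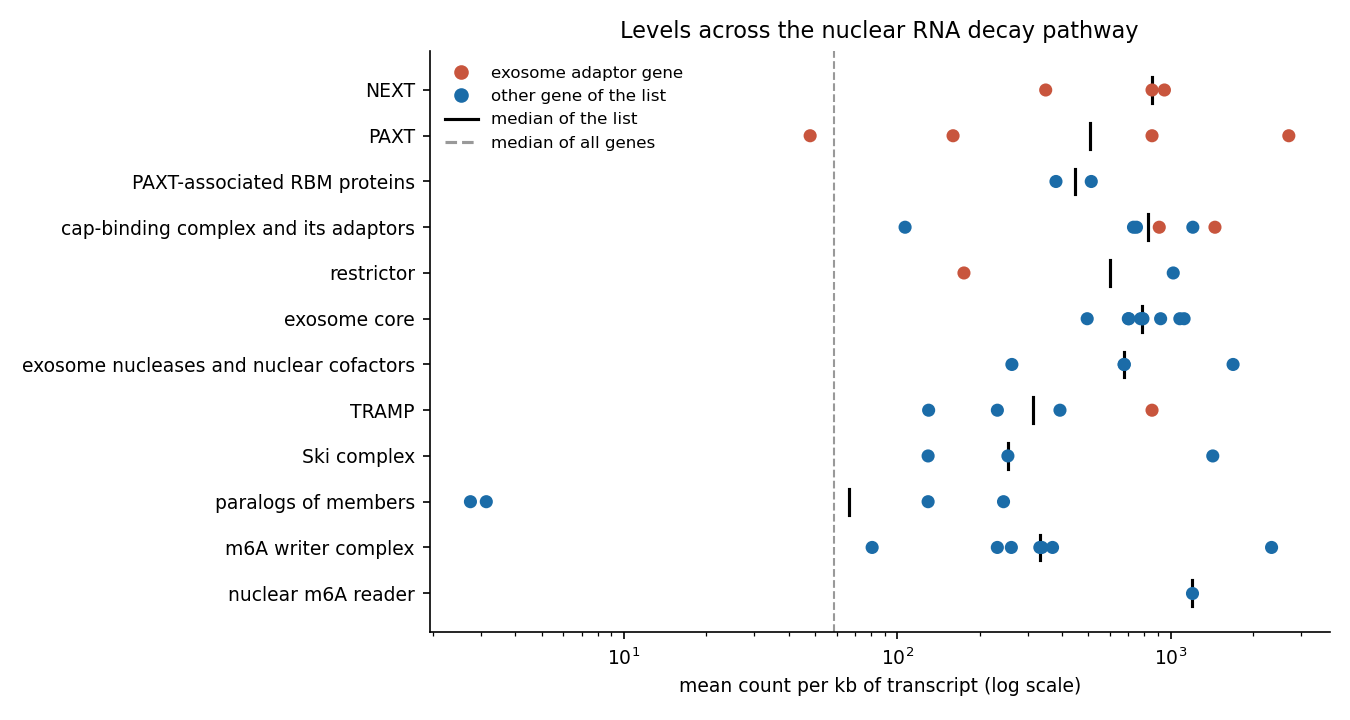
Mean count per kb of transcript (log axis) of each gene in 12 lists of the pathway. Red circles are the 9 members, blue circles the other genes, black bars the medians of lists and the dashed line the median of all genes, 58.7. The core exosome genes lie close together, and the genes of PAXT spread from 48.0 to 2708.

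The members share neither position nor transcript form. They lie on 8 chromosomes, with only Zcchc8 and Srrt on the same one, and none is X-linked. Compared with 16354 protein-coding genes, which had a median transcript of 2906 bases and 8 exons, the members ranged from Pabpn1 and Rbm7, with 7 and 5 exons, to Zfc3h1 with 35. Zcchc8 and Zc3h4 had the longest 3′ untranslated regions, 2050 and 2185 bases, against a median of 928 over coding genes. Pabpn1 and Srrt had the shortest, 113 and 127 bases in the chosen transcripts. Long exons, where m6A is known to be concentrated, were present in some. The longest internal exon of Zc3h3 has 1309 bases, above 95.9% of coding genes, and that of Zc3h18 has 605 bases. The last exon of Zc3h4 has 3675 bases and that of Zcchc8 has 2829. Skiv2l2 lies at the other end, with 7.32 exons per kb, above 93.7% of coding genes, and no internal exon over 189 bases. GC content ran from 40.6% in Rbm7 to 58.6% in Zc3h3.

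METTL3 methylates the A within a short consensus whose best known form is GGACT in DNA letters, so the members' transcripts were searched for it on the sense strand. No m6A was measured in these libraries, and a match is a description of the sequence, not a methylated site. The 9 transcripts held 37 matches in 34034 bases, or 1.09 per kb, against 1.11 per kb over all coding genes, 91.5% of which had at least 1 match. The members as a group thus did not stand out. Their single values differed, but each rests on only 1 to 10 matches. Whether the members differ beyond chance, or with GC content, was not tested. Pabpn1 had 4 matches in its 1030 bases, 3.88 per kb, above 99.4% of coding genes. This rank depends on its annotation. The chosen transcript is longer than those of only 7.17% of coding genes, and coding transcripts of Pabpn1 run to 1775 bases. Matches in its other transcripts were not counted. Zc3h4 had the most, 10, or 1.66 per kb. Zcchc8 had 1 match in 4350 bases and Rbm7 had 1 in 1773 bases, below most coding genes, with 9.06% and 21.1% of these under them. Of all matches 29 lay in coding sequence, 6 in a 3′ untranslated region and 2 in a 5′ untranslated region. Per kb of coding sequence the members held 1.16 matches, close to the 1.09 per kb of their whole transcripts. The value over the coding sequence of all coding genes was 1.20. In Zc3h3, 3 of its 5 matches lay in the 3′ untranslated region.

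**Figure D4:**
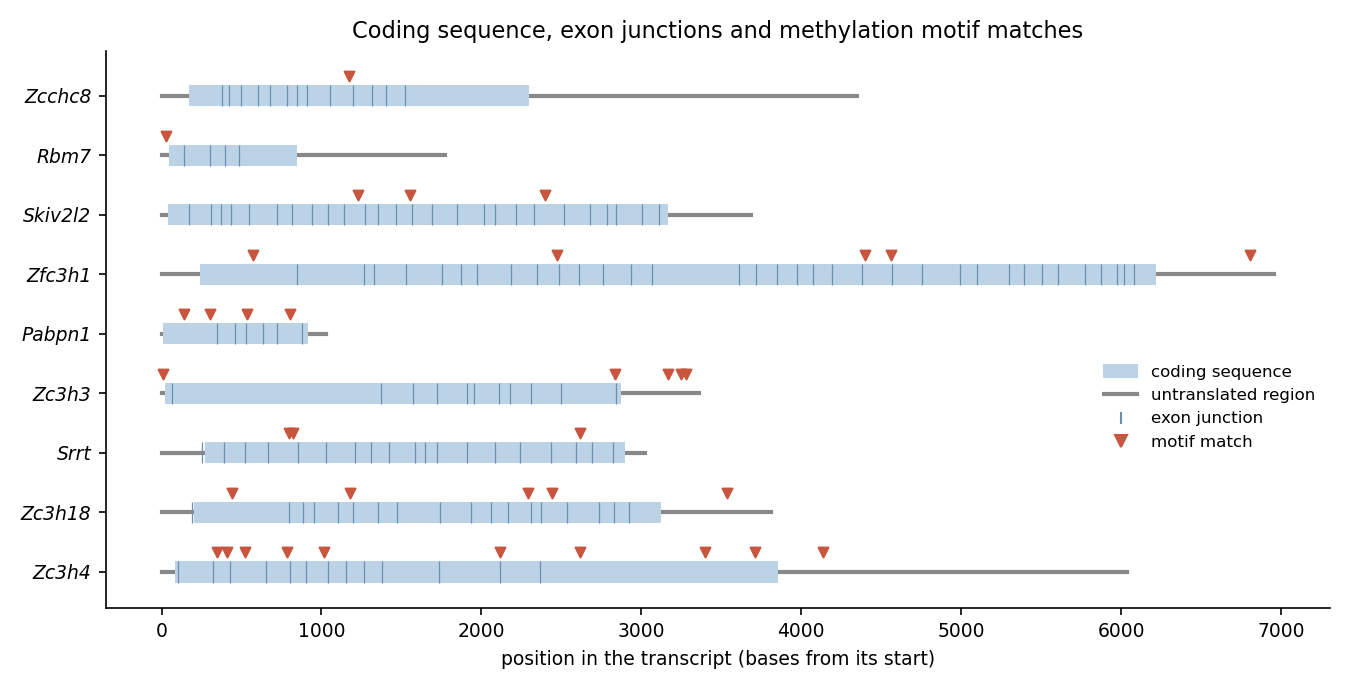
Chosen transcript of each member, drawn to scale in bases from its start. Pale boxes are coding sequence, grey lines untranslated regions, thin ticks exon junctions and red triangles GGACT matches. Zcchc8 and Rbm7 have 1 match each, and Zc3h4 has 10.

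The sequences below show the matches of those 2 genes, because each is the sole match of its transcript, and, in 5 further genes, the match nearest to the stop codon among those whose window lies within 1 exon, where it was within 500 bases of that codon, because m6A is known to be frequent near stop codons. Each window has 25 bases, is read 5′ to 3′ on the strand of the RNA from the GENCODE vM21 transcripts (GRCm38), and capitals mark the match. Zc3h3 has a nearer match in the coding part of exon 11, which is not shown because its window crosses an exon junction. The Zcchc8 window lies in exon 10 of 14, in coding sequence (chr5:123707279-123707303, minus strand), and the Rbm7 window in exon 1 of 5, in the 5′ untranslated region (chr9:48495255-48495279, minus strand). The Pabpn1 window lies in exon 6 of 7, 113 coding bases before the end of the stop codon (chr14:54897187-54897211, plus strand). Those of Srrt (exon 18 of 20, chr5:137296282-137296306, minus strand) and Zc3h4 (exon 14 of 14, chr7:16435358-16435382, plus strand) lie in coding sequence as well, 279 and 140 bases before it. The Zc3h18 window (exon 19 of 19, chr8:122417074-122417098, plus strand) and the Zc3h3 window (exon 12 of 12, chr15:75754614-75754638, minus strand) lie in the 3′ untranslated region, 412 and 293 bases after it.
Zcchc8: ggagaattctGGACTtgcactctat
Rbm7: cctaggcctgGGACTggaacagcgc
Pabpn1: taccgtgcccGGACTaccaactaca
Srrt: cctgaccccaGGACTtccctaccca
Zc3h4: actctctttgGGACTgtaaagccgg
Zc3h18: gaacacttctGGACTacaggcacca
Zc3h3: cctcactctaGGACTtgtccctggc

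Set beside the levels, the motif count gave no common order. Pabpn1 was highest in both level per kb and GGACT per kb, whereas Rbm7, at 949 per kb, had 1 match, and Zc3h3 was lowest in level with 1.49 matches per kb. Both values of Pabpn1 are divided by the same 1030 bases, the shortest chosen transcript of the 9, which raises them together. Over 9 genes the comparison is a description only.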

How the data were processed

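Total RNA of 8 libraries was sequenced after removal of ribosomal RNA. The molecule label and the study's methods name total RNA, but the extraction protocol in the labels is one for chromatin RNA. Per the study's methods, the authors aligned reads uniquely with STAR to mm10 with strain variants masked, removed duplicates with Picard, and counted and compared genes and transposable elements with TEtranscripts, which runs DESeq2. The deposited signal column is the authors' mean over libraries of counts divided by size factors. It was the only value used. The remaining 5 columns hold the authors' own comparison (fold change, its error, statistic, p-value, adjusted p-value) and were neither used nor printed. The table carries the word reverse in its name, so whether counting used strand is uncertain. No test was run, since a pooled mean has no replicates.

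Symbols were matched to GENCODE vM21 (GRCm38, the build of mm10) with Python 3.11.15: 16660 by current and 722 by older symbol, 175 without a match and 40 with several records left out, so 17382 genes (98.8%) had a transcript. One transcript a gene was taken, by coding status, the basic set, APPRIS rank, coding length and length. All members and, of each list, the highest and lowest gene are named. The members and lists were chosen with earlier results of these data known. Protein sequences were not used here. Rank, motif and coordinate steps were tested on simulated data.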

Additional observations from a re-analysis of the deposited data

How the results depend on the processing

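Each value is one pooled mean, so the spread between libraries is unknown and no library could be left out. No paired analysis was possible because the table gives no value for single libraries. The median percentile of the members was 87.6, 83.9 if genes under a mean count of 10 were left out of the ranking, and 91.0 when ranked per kb. The ratio of the highest to the lowest member per kb was 56.4, close to that by coding length (54.3), and fell to 20.0 over all annotated exons, which lengthens Pabpn1 most. Per kb of coding sequence the medians were 1010 for NEXT, 598 for PAXT and 1213 for the exosome core, against 855, 508 and 788 per kb of transcript. NEXT thus lay above the core per kb of transcript and below it per kb of coding sequence. Zc3h3 remained lowest and Pabpn1 highest under all 3 lengths, and Zc3h3 lay above the gene median over all annotated exons, where 9 of 9 members did. With GGAC in place of GGACT, the members held 4.61 matches per kb against 4.25 over coding genes. In coding sequence alone GGACT gave 1.16 per kb, against 1.20 over all coding genes.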
